A study of Mus musculus with 12 samples.

Results

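Ly6Clow and Ly6Chigh monocytes of the mouse were set against each other in the condition that the deposited tables call q2. Ly6Chigh monocytes, also called inflammatory or classical, leave the bone marrow and enter inflamed tissue through the chemokine receptor CCR2. Ly6Clow monocytes, also called patrolling, crawl along the inside of blood vessels, depend on the nuclear receptor NR4A1 and largely arise from Ly6Chigh cells. The comparison covers every gene row that carried the status OK in both tables and reached 1 FPKM (fragments per kilobase of transcript, scaled to the mapped fragments) in either subset in q2, which left 10579 of 23989 joined rows. For each of them the difference was taken as the log2 ratio of Ly6Clow FPKM + 1 over Ly6Chigh FPKM + 1, so a positive ratio means higher in Ly6Clow.

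The labels describe RNA-seq of total RNA from C57Bl/6 mice in 4 groups of 3 samples. Both subsets were taken from mice given Placebo, whose titles read Naive, and from mice given MDP, whose titles carry 16 h. MDP is muramyl dipeptide, the bacterial cell wall fragment sensed by the receptor NOD2. The labels give no dose or route, do not say how the cells were sorted or whether each sample came from 1 animal and name no organ. The design text also names NR4A1-/- and NOD2-/- mice, which were not analysed here. The tables hold 1 authors' FPKM value per subset and condition and none per sample, so none of the ratios between subsets has an error or a test, and the depth is unknown. The sources used here do not say whether q2 is MDP or placebo, nor that q2 is the same condition in both tables. The 2 tables may also have been scaled separately. The median ratio over all compared genes was -0.0075 in q2 and 0.015 in q1.

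The 4 markers were checked first. Ly6c2, which encodes the Ly6C2 surface antigen (chromosome 15, 75108161 to 75111949, mm10), was at 1312 FPKM in Ly6Chigh in q1 and 1054 in q2, and at 5.78 and 3.98 in Ly6Clow. Its q2 ratio of -7.73 was nearly that of q1, -7.6. Ccr2 (chromosome 9, 124102183 to 124109140) was at 581 FPKM in Ly6Chigh in q1 and 278 in q2, and at 80.2 and 72.6 in Ly6Clow, a ratio of -1.92 in q2 against -2.84 in q1. Cd36, a scavenger receptor for oxidised lipids (chromosome 5, 17781690 to 17888959), was at 5.4 FPKM in Ly6Chigh in q1 and 2.98 in q2, and at 190.0 and 195 in Ly6Clow, with ratios of 4.9 in q1 and 5.62 in q2. Fcgr4, an activating Fc receptor (chromosome 1, 171018926 to 171029761), was at 35.8 FPKM in Ly6Chigh in q1 and 21.1 in q2, and at 630.0 and 274 in Ly6Clow, with ratios of 4.1 and 3.64. All 4 markers lay on the side of their subset in both conditions, and Ccr2 was the only marker under 4-fold in q2.

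In q2, 145 genes were at least 4-fold higher in Ly6Clow (1.37% of the genes compared) and 74 at least 4-fold higher in Ly6Chigh (0.699%). In q1 the same rule gave 148 (1.4%) and 126 (1.19%) of 10545 genes. The Ly6Chigh side was therefore the shorter one in q2, while the Ly6Clow side had nearly the same length in both conditions. At 2-fold the q2 counts were 512 (4.84%) and 416 (3.93%), against 526 (4.99%) and 559 (5.3%) in q1. Just inside the 4-fold line in q2 among well expressed genes stood Cxcr4 at 2.0 and S100a10 at -2.05, and just outside it Retnlg at 1.99 and Slc25a4 at -1.99.

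**Figure D1:**
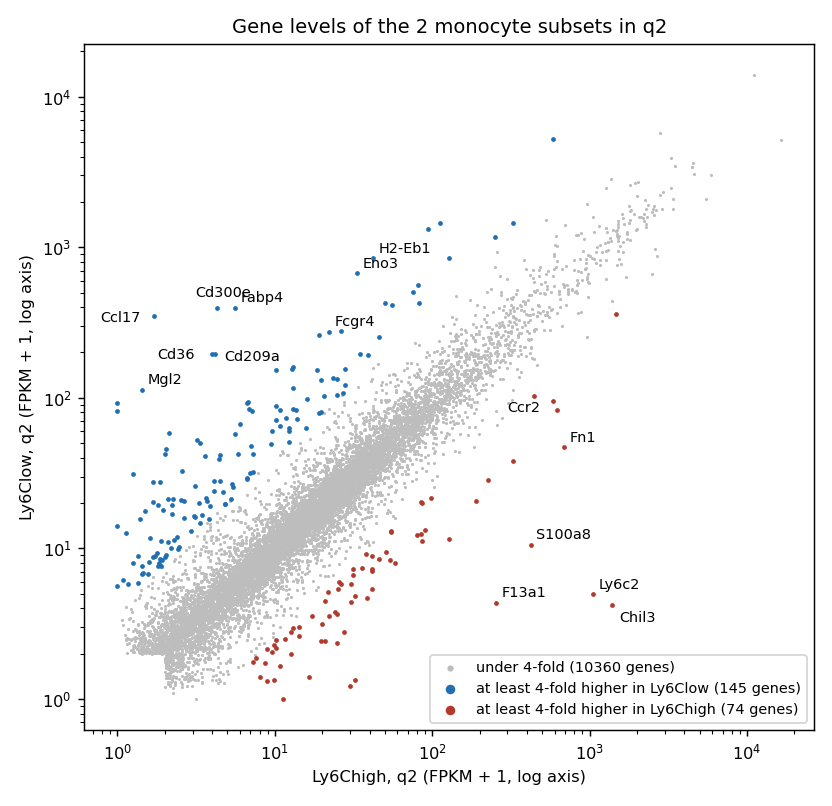
Each point is a gene, with its authors' FPKM + 1 in Ly6Chigh on the x axis and in Ly6Clow on the y axis, both in q2 and on log axes. Blue points mark the 145 genes at least 4-fold higher in Ly6Clow and red points the 74 at least 4-fold higher in Ly6Chigh, with Ccl17 and Chil3 among the farthest from the grey band.

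The q2 differences were then read against those of q1 over 10757 genes compared in either condition. A difference was called kept when it passed 4-fold in both conditions in the same direction, lost when it passed 4-fold in q1 and was under 2-fold in q2, and gained in the reverse case. Cases between 2-fold and 4-fold were called reduced or raised, and genes past 2-fold in opposite directions were called turned. Kept differences made up 1.3% of all genes, lost 0.27%, gained 0.232%, reduced 0.93%, raised 0.474% and turned 0.093%. Of the 148 genes past 4-fold on the Ly6Clow side in q1, 87 were kept, 45 reduced, 12 lost and 4 turned. Of the 126 on the Ly6Chigh side, 53 were kept, 55 reduced, 17 lost and 1 turned. The shares kept were 58.8% on the Ly6Clow side and 42.1% on the Ly6Chigh side. Among genes past 4-fold in q2, 40 were raised, 17 gained and 1 turned on the Ly6Clow side, and 11 were raised, 8 gained and 2 turned on the Ly6Chigh side. Within the 140 kept differences, those on the Ly6Clow side widened by 1 or more on the log2 scale for 8 genes and narrowed by as much for 11, and those on the Ly6Chigh side widened for 3 and narrowed for 4. These classes rest on values without replicate error.

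**Figure D2:**
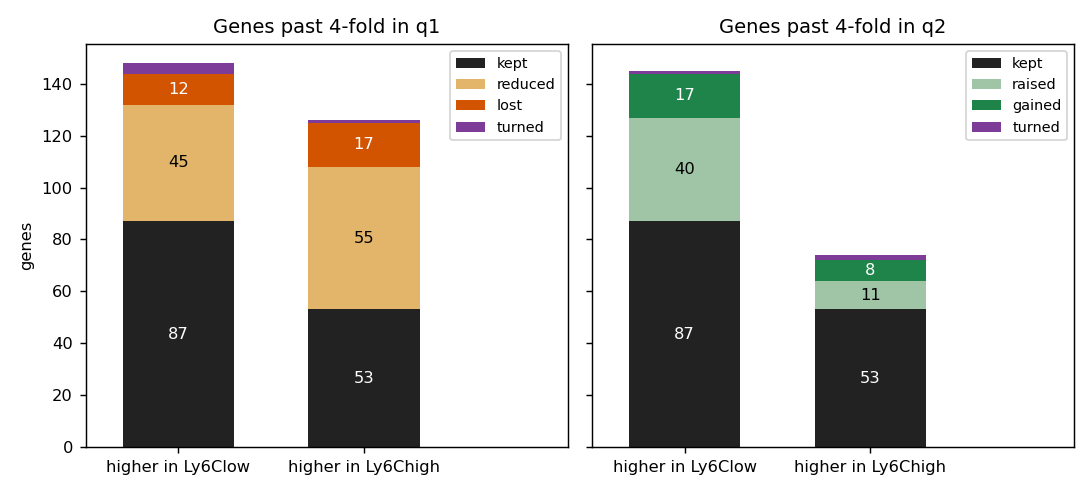
Bars count the genes past 4-fold in q1 (left) and in q2 (right), separately for genes higher in Ly6Clow and higher in Ly6Chigh, and colours show what became of a q1 difference or where a q2 difference came from. The Ly6Chigh bar is 126 genes high in q1 and 74 in q2, and the Ly6Clow bars are 148 and 145 genes high.

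**Figure D3:**
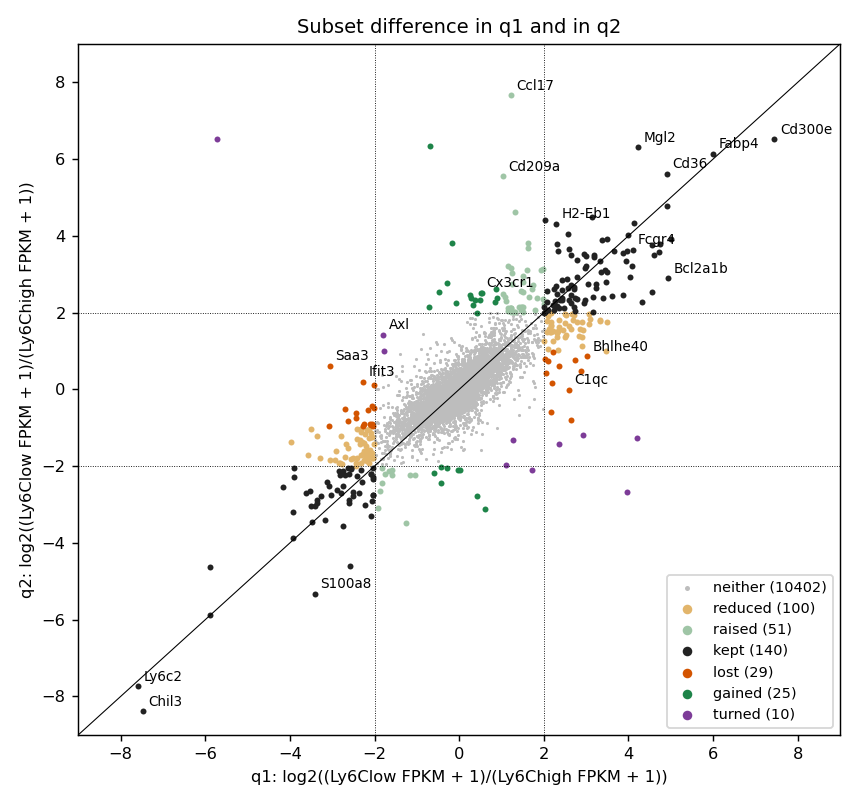
Each point is a gene, with its q1 log2 ratio on the x axis and its q2 log2 ratio on the y axis. Dotted lines mark 4-fold and the solid line marks equal ratios. Ly6c2 and Fabp4 lie next to the solid line, Ccl17 and Cd209a far above it, and Saa3, Ifit3 and C1qc within 1 of a q2 ratio of 0.

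The classical identity genes stayed apart in q2 as a group. They were picked as Ly6Chigh genes with earlier results of these data known, so their side was largely set in advance. Of 14 compared, 12 were at least 2-fold higher in Ly6Chigh (background 3.93%) and 0 at least 2-fold higher in Ly6Clow, the same counts as in q1. At 4-fold the count was 8 in q2 and 10 in q1, and the median ratio of the list was -3.05 and -3.0. Chil3, a chitinase-like secreted protein, had the lowest q2 ratio of all named genes, -8.38, at 963 FPKM in Ly6Chigh in q1 and 1395 in q2, and at 4.43 and 3.18 in Ly6Clow. The ratio had been -7.47 in q1. F13a1, the A subunit of coagulation factor XIII, kept a ratio of -5.88 in q2 (-5.89 in q1) although its level fell in both subsets, from 456 to 255 FPKM in Ly6Chigh (q = 0.00159) and from 6.69 to 3.36 in Ly6Clow (q = 0.000418) in the authors' deposited table. Fn1, which encodes the matrix protein fibronectin, was at 650.0 FPKM in Ly6Chigh in q1 and 687 in q2, and at 41.6 and 45.9 in Ly6Clow, and its ratio was -3.93 and then -3.87.

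Cd177, a surface protein best known from neutrophils, narrowed from -5.89 to -4.64, with 143 and 29.1 FPKM in Ly6Chigh and 1.44 and 0.212 in Ly6Clow. Cd93, a C-type lectin-like receptor, stood at -3.39 in q2 and the haptoglobin gene Hp at -2.9, wider than its q1 ratio of -2.06. Msr1, a macrophage scavenger receptor, Thbs1, thrombospondin 1, and Tgfbi, a matrix-bound protein, were kept at -2.95, -2.7 and -2.62, and the chemokine gene Ccl2, the ligand of CCR2, at -3.03. The locus of Msr1 holds more than 1 symbol. Vcan and Mmp8 of the list were not compared, since their Ly6Clow rows carried the status NOTEST.

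Tfec, a transcription factor of the MiT family, widened on the Ly6Chigh side from -2.59 to -4.6. Its FPKM rose from 5.96 to 31.3 in Ly6Chigh (q = 0.000859) and was 0.155 and 0.334 in Ly6Clow (q = 0.111) in the authors' deposited table. Trem2, a lipid-sensing receptor, widened from -2.08 to -3.31 as its Ly6Clow level fell from 12.7 to 1.78 FPKM (q = 0.000418 in the authors' deposited table), below a Ly6Chigh level that fell from 56.7 to 26.6. Sgms2, a sphingomyelin synthase, was at -3.57 and the protease inhibitor gene Slpi at -3.46. The locus of Slpi holds more than 1 gene symbol.

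The patrolling identity genes likewise stayed on the Ly6Clow side, which for the same reason was largely set in advance. Of 21 compared, 19 were at least 2-fold higher in Ly6Clow in q2 (background 4.84%), as many as in q1, and 0 at least 2-fold higher in Ly6Chigh. At 4-fold the count was 15 in q2 and 13 in q1, and the median ratio 2.74 and 2.79. Cd300e, an activating receptor of the CD300 family (chromosome 11, 115051917 to 115062038), was at 1.79 FPKM in Ly6Chigh in q1 and 3.31 in q2, and at 486 and 392 in Ly6Clow. Its ratio of 6.51 in q2 was 7.45 in q1. Fabp4, a fatty acid binding protein, was at 4.64 FPKM in Ly6Chigh in q1 and 4.61 in q2, and at 360.4 and 394 in Ly6Clow, with ratios of 6.0 and 6.14.

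Eno3, an enolase isoform best known from muscle, stood at 4.33 in q2, and Lilra5, an immunoglobulin-like receptor, at 4.78. The integrin alpha X gene Itgax (CD11c) narrowed from 4.55 to 3.77. The level rose in both subsets, from 5.66 to 18 FPKM in Ly6Chigh (q = 0.000859) and from 155 to 258 in Ly6Clow (q = 0.000418) in the authors' deposited table. Dusp16, a phosphatase of MAP kinases, narrowed from 5.0 to 3.92, and Cd274, the checkpoint ligand PD-L1, from 4.03 to 2.94. Both rose in Ly6Chigh (q = 0.000859 each in the authors' deposited table). Ace, angiotensin converting enzyme, was at 2.65 and 2.73; its locus holds more than 1 symbol. Treml4, a TREM-like receptor, was at 2.74, and Pparg, the lipid-responsive nuclear receptor, at 3.91.

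Spn, which encodes CD43, a surface antigen used to gate Ly6Clow cells, was reduced from 2.79 to 1.75. The FPKM value rose from 82.8 to 139.8 in Ly6Chigh (q = 0.00457) and was 581 and 473 in Ly6Clow (q = 0.117) in the authors' deposited table. Apoc2, an apolipoprotein of the Apoe cluster, had been on the Ly6Clow side in q1 at 1.65 and was at -0.46 in q2. It fell in both subsets, from 156 to 33.2 FPKM in Ly6Chigh and from 494 to 23.8 in Ly6Clow (q = 0.000859 and 0.000418 in the authors' deposited table). Nr4a1 itself, named after its values were seen because the study's design includes mice lacking it, was under 4-fold in both conditions, with ratios of 1.6 and 1.09.

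The widest q2 difference of all named genes on the Ly6Clow side was that of Ccl17, a chemokine that attracts T cells through CCR4 (chromosome 8, 94810453 to 94812036). It was at 0.110 FPKM in Ly6Chigh in q1 and 0.718 in q2, and at 1.61 and 347 in Ly6Clow. The q1 ratio of 1.23 thus became 7.66. The rise in Ly6Clow passed the authors' test and the Ly6Chigh values did not (q = 0.000418 and q = 0.451 in the authors' deposited table). As a fold on the FPKM + 1 scale, Ccl17 was 202-fold higher in Ly6Clow in q2 and 2.35-fold in q1. With the condition numbers crossed between the subsets, its Ly6Clow value set against 0.718 FPKM would be 1.61, not 347.

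Cd209a, a mouse relative of DC-SIGN (chromosome 8, 3743395 to 3748984), was at 62.1 FPKM in Ly6Chigh in q1 and 3.17 in q2, and at 129 and 194 in Ly6Clow. The ratio went from 1.04 to 5.55, as Cd209a fell in Ly6Chigh (q = 0.000859) and rose in Ly6Clow (q = 0.000418) in the authors' deposited table. The same directions were called for its paralogs Cd209d, from 1.32 to 4.63, and Cd209c, from 2.02 to 4.41, which may share reads with it. Mgl2, the galactose-binding lectin CD301b, was at 1.1 FPKM in Ly6Chigh in q1 and 0.429 in q2, and at 38.3 and 112 in Ly6Clow. Its difference widened from 4.22 to 6.3, with a rise in Ly6Clow (q = 0.000418 in the authors' deposited table) above a Ly6Chigh level close to 0.

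Of 16 C-type lectin receptors compared, 7 were at least 2-fold higher in Ly6Clow in q2 and 3 in q1 (4.84% and 4.99% of all rows compared). Another 3 in q2 and 4 in q1 were at least 2-fold higher in Ly6Chigh (3.93% and 5.3%). Clec4b1 was gained, from 0.86 to 2.27. Clec5a, a receptor that signals through DAP12, was kept on the Ly6Chigh side at -2.76, and Clec4a2 was reduced from -3.04 to -1.83. The locus of Clec5a holds more than 1 symbol. Outside that list, Siglece, an inhibitory sialic acid receptor, was gained on the Ly6Clow side, from -0.71 to 2.14, with 25 and 26.7 FPKM in Ly6Chigh and a rise from 14.9 to 121 in Ly6Clow (q = 0.000418 in the authors' deposited table). With the condition numbers crossed between the subsets, the ratio of Siglece was -0.81, on the Ly6Chigh side. Kmo, the kynurenine hydroxylase of tryptophan breakdown, was gained at 2.55 after -0.48, with Ly6Chigh falling from 12.4 to 2.66 FPKM and Ly6Clow rising from 8.6 to 20.4 (q = 0.000859 and 0.000418 in the authors' deposited table).

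**Figure D4:**
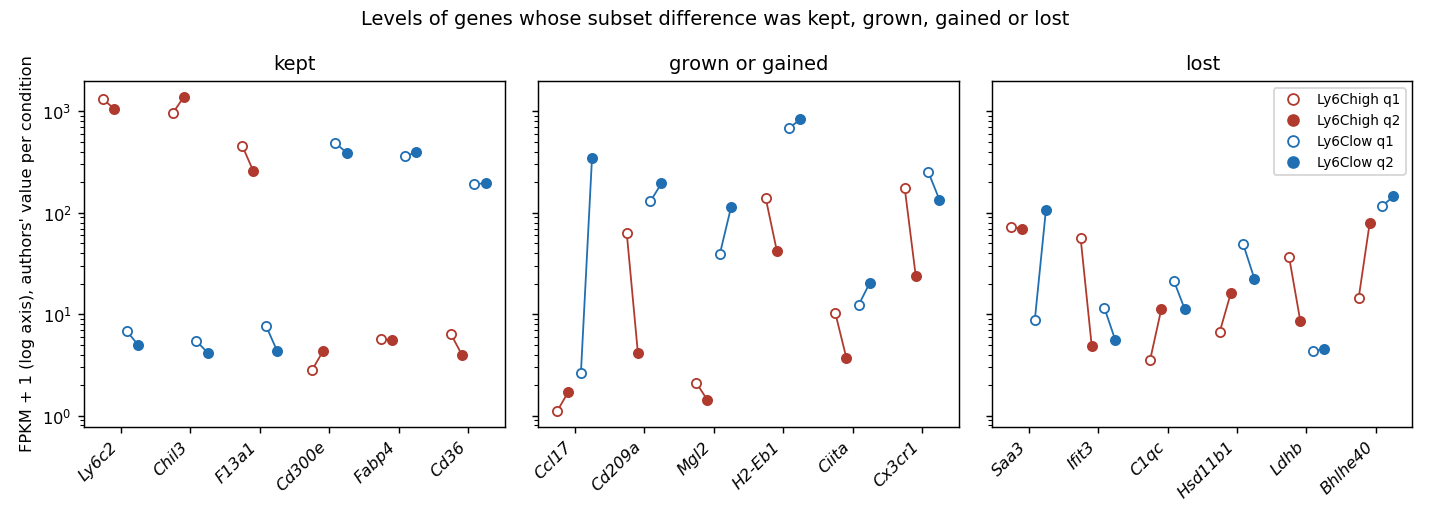
Open and filled circles give the authors' FPKM + 1 of q1 and q2 on a log axis, red for Ly6Chigh and blue for Ly6Clow, and lines join the 2 conditions of a subset. The subsets stay far apart for the genes on the left, separate further for those in the middle, as Ccl17 does at 0.72 and 347 FPKM in q2, and come together for those on the right, as C1qc does at 10.2 and 10.1.

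MHC class II genes separated the subsets far more widely in q2 than in q1. Class II molecules present peptides to CD4 T cells, and CIITA is the coactivator their promoters need. Of 11 genes compared, 8 were at least 4-fold higher in Ly6Clow in q2 (background 1.37%) against 2 in q1 (background 1.4%). The median ratio was 2.47 in q2 and 1.22 in q1. H2-Eb1, a class II beta chain (chromosome 17, 34305867 to 34316674), was at 138 FPKM in Ly6Chigh in q1 and 41.2 in q2, and at 684 and 841 in Ly6Clow, and its ratio widened from 2.3 to 4.32. The alpha and beta chains H2-Aa and H2-Ab1 both stood at 1.62 in q1, and at 3.69 and 3.82 in q2.

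More of these genes were called within Ly6Chigh than within Ly6Clow. In Ly6Chigh 6 of the 11 class II genes passed as lower in q2 and 0 as higher (backgrounds 7.79% and 7.3%), while in Ly6Clow 4 were called higher and 0 lower (backgrounds 14.5% and 12.5%) in the authors' deposited table. Cd74, the invariant chain, fell from 1626 to 584 FPKM in Ly6Chigh (q = 0.000859) and was at 3802 and 5223 in Ly6Clow (q = 0.0955) in the authors' deposited table, so its ratio went from 1.22 to 3.16. The locus of Cd74 holds more than 1 symbol. Ciita was a gained difference, from 0.26 to 2.47, since it fell from 9.36 to 2.72 FPKM in Ly6Chigh and rose from 11.4 to 19.5 in Ly6Clow (q = 0.000859 and 0.000418 in the authors' deposited table). H2-DMb2, a chain of the peptide editor, was gained through Ly6Clow, at 13.7 FPKM in Ly6Chigh in q1 and 10.8 in q2, and at 25.7 and 72 in Ly6Clow. H2-DMa, its partner chain, was at -1.0 in q1 and 0.088 in q2, and H2-Eb2 stayed under 1.5 FPKM in every value.

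Promoters of the 2 class II genes below show the Y box that class II promoters share. RefSeq promoter windows (GRCm38.p6, the assembly of mm10) run from 250 bases before to 50 after the gene start. The letters CTGATTGG were searched on both strands and matches are in capitals. They lie 62 bases before the start of H2-Eb1 (chr17:34305617-34305916, plus strand) and 51 bases before that of H2-Aa (chr17:34287774-34288073, minus strand).
H2-Eb1: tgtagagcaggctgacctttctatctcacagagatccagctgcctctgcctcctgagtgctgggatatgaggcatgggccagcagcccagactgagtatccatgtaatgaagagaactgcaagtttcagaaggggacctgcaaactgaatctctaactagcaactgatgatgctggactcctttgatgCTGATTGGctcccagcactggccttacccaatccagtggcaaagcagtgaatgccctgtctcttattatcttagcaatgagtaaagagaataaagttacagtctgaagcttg
H2-Aa: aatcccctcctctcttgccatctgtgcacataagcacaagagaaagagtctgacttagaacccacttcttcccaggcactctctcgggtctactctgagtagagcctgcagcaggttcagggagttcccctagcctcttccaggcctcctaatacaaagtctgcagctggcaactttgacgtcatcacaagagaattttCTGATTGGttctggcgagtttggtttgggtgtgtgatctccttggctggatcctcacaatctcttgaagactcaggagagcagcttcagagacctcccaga
The match was present in 4 of the 8 class II genes that have a window (H2-Aa, H2-Eb1, H2-Eb2 and H2-Oa) and in 4.1% of all 32851 windows. A match describes the letters only. H2-Eb2 carries it and had a q2 ratio of 0.81.

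Markers of B cells and dendritic cells, which also carry class II, lay mostly on the Ly6Clow side in q2. Of 9 B cell markers compared, 8 were at least 2-fold higher in Ly6Clow in q2 and 5 in q1, beside 4.84% and 4.99% of all rows compared. Their summed level was 98.1 and 81.1 FPKM in Ly6Chigh and 219 and 303 in Ly6Clow, and 0 of them stayed under 1 FPKM in all 4 values. Of the B cell markers, 0 passed as lower in q2 in Ly6Chigh and 1 as higher (backgrounds 7.79% and 7.3%). In Ly6Clow 5 were called higher and 0 lower (backgrounds 14.5% and 12.5%) in the authors' deposited table. Cd79a, part of the B cell receptor, was at 22.8 FPKM in Ly6Chigh in q1 and 18.6 in q2, and at 51.6 and 79.6 in Ly6Clow. Cd22, a sialic acid-binding inhibitory receptor of B cells, was reduced from 2.51 to 1.95, at 5.96 FPKM in Ly6Chigh in q1 and 9.85 in q2, and at 38.7 and 41 in Ly6Clow, and rose in Ly6Chigh (q = 0.00897 in the authors' deposited table). Dendritic cell markers had 5 of 6 genes at least 2-fold higher in Ly6Clow in q2 and 2 of 6 in q1 (the same backgrounds of 4.84% and 4.99%), with sums of 306 and 171 FPKM in Ly6Chigh and 251 and 324 in Ly6Clow. That list includes Cd209a and Bst2, which is also on the interferon-stimulated list. Bst2 was at 213 FPKM in Ly6Chigh in q1 and 163 in q2, and at 86.2 and 99.2 in Ly6Clow. Its ratios of -1.3 in q1 and -0.71 in q2 were on the Ly6Chigh side. Bst2 and Cd209a make up most of each sum. Flt3, the cytokine receptor of dendritic cell precursors, was a gained difference, at 12.6 FPKM in Ly6Chigh in q1 and 0.454 in q2, and at 12 and 5.88 in Ly6Clow. Zbtb46, a transcription factor of conventional dendritic cells, was at 0.411 FPKM in Ly6Chigh in q1 and 0.345 in q2, and at 3.76 and 7.88 in Ly6Clow, while Xcr1, Siglech, Ccr9 and Itgae were under 1 FPKM in all 4 values. The part of these cells in the class II and lectin differences was not tested, and in bulk RNA fewer cells of a type and less RNA per cell cannot be told apart.

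The ratios of class I genes moved less. Of 17 class I and peptide loading genes, 0 were past 4-fold in either condition. This was near the shares of all rows compared, 1.37% and 1.4% in Ly6Clow and 0.699% and 1.19% in Ly6Chigh. In Ly6Chigh 8 passed as lower in q2 and 2 as higher (backgrounds 7.79% and 7.3%). In Ly6Clow 7 passed as lower and 0 as higher (backgrounds 12.5% and 14.5%) in the authors' deposited table. At 2-fold, 3 were higher in Ly6Clow in q2 and 2 in q1 (4.84% and 4.99% of all rows compared). The medians were 0.42 in q2 and 0.088 in q1. H2-K1, a classical class I heavy chain, was at 1.51 and H2-Q4, a non-classical one, at 1.92 in q2. The chaperone genes Pdia3 and Calr were under 2-fold, at -0.97 and -0.68, after -0.087 and 0.46 in q1. Among 13 costimulatory and checkpoint genes 3 were past 4-fold on the Ly6Clow side in q2 and 5 in q1 (1.37% and 1.4% of all rows compared). On the Ly6Chigh side there were 0 in either condition (0.699% and 1.19%). Cd83, a maturation marker, was kept at 3.21 and Pdcd1lg2, the ligand PD-L2, at 2.25, whereas the paired receptor gene Pilra was lost, from 2.1 to 0.73, and Havcr2 (TIM-3) was reduced to 1.53. The loci of Pilra and Havcr2 hold more than 1 symbol.

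Receptors for homing and vascular contact had a median ratio of 0.82 in q2 and 0.27 in q1. Of 16 receptors compared in q2, 7 were at least 2-fold higher in Ly6Clow and 4 in Ly6Chigh (4.84% and 3.93% of all rows compared), against 5 and 5 of 18 in q1 (4.99% and 5.3%). Cx3cr1, the fractalkine receptor that patrolling cells use on endothelium (chromosome 9, 120048683 to 120068296), was at 175 FPKM in Ly6Chigh in q1 and 22.6 in q2, and at 250.5 and 134 in Ly6Clow. It was the only patrolling identity gene whose difference was gained, from 0.51 to 2.52. It fell in both subsets (q = 0.000859 and 0.000418 in the authors' deposited table). Pecam1, the endothelial and leukocyte adhesion molecule CD31, was raised from 1.94 to 3.11 by a rise in Ly6Clow from 36 to 86.9 FPKM (q = 0.000418 in the authors' deposited table). S1pr5, a sphingosine phosphate receptor for egress from the marrow, was kept at 3.65 and 3.62.

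Cxcr4, the marrow retention receptor, stayed at the 4-fold line, 2.01 and 2.0, with lower levels in q2 in both subsets. Ccr1 went the other way and widened on the Ly6Chigh side from -2.03 to -2.74. Fpr1, a formyl peptide receptor, was kept on the Ly6Clow side at 2.18. Of 22 integrin and adhesion genes, 5 were at least 2-fold higher in Ly6Clow in q2 and 6 in q1 (4.84% and 4.99% of all rows compared). In Ly6Chigh 1 was in q2 and 2 in q1 (3.93% and 5.3%), so the q2 count was near the share over all genes. That gene was Itga5, the fibronectin receptor subunit, at -1.3 in q2. The locus of Itga5 holds more than 1 symbol.

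Interferon-stimulated genes, which limit virus growth, were closer between the subsets in q2. Of 31 compared, 9 were at least 2-fold higher in Ly6Chigh in q2 (background 3.93%) against 23 in q1 (background 5.3%), and at 4-fold 0 against 8. The median ratio moved from -1.33 to -0.56. Among the members compared in either condition, 27 passed as lower in q2 in Ly6Chigh and 0 as higher (backgrounds 7.79% and 7.3%). In Ly6Clow 15 passed as lower and 3 as higher (backgrounds 12.5% and 14.5%) in the authors' deposited table. Ifit3, an antiviral protein of the IFIT family (chromosome 19, 34583529 to 34588982), was at 54.9 FPKM in Ly6Chigh in q1 and 3.82 in q2, and at 10.6 and 4.52 in Ly6Clow, so that the ratio of -2.27 in q1 became 0.2 in q2. Ifit1 was lost as well, from -2.06 to -0.42.

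A further 6 members were reduced. Isg15, a ubiquitin-like modifier, was at 131 FPKM in Ly6Chigh in q1 and 63.3 in q2, and at 16.7 and 20.2 in Ly6Clow and kept the widest q2 ratio of the list, -1.6. Oasl1, Oasl2 and Usp18 were at -1.11, -1.27 and -1.31, after -2.31, -2.14 and -2.41. Gbp3 and Ifi203 were at -1.13 and -1.24 in q2, and both rose in Ly6Clow (q = 0.000788 and 0.000418 in the authors' deposited table). Cxcl10, an interferon-induced chemokine whose locus holds more than 1 symbol, was reduced from -3.98 to -1.36, at 25.8 FPKM in Ly6Chigh in q1 and 3.02 in q2, and at 0.694 and 0.567 in Ly6Clow.

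The promoter of Ifit3 (chr19:34583279-34583578, plus strand, GRCm38.p6, RefSeq) is shown for the interferon response element. The letters GAAA, any 2 bases and again GAAA were searched on both strands, and the 2 matches, which begin 156 and 122 bases before the start, are in capitals on the strand opposite to the motif as spelled.
Ifit3: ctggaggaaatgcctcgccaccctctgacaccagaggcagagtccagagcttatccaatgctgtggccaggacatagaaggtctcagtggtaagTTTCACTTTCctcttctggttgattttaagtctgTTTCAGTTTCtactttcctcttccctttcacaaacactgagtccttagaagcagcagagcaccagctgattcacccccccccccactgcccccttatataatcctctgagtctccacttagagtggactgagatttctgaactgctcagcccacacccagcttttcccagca
This pattern was present in 14 of the 25 listed interferon-stimulated genes that have a window, Isg15, Ifit1, Gbp3 and Ifi203 among them, and in 3.44% of all windows.

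The C1q genes lost most of their Ly6Clow excess. C1qc, a chain of the classical pathway starter C1q, was at 2.55 FPKM in Ly6Chigh in q1 and 10.2 in q2, and at 20.5 and 10.1 in Ly6Clow, and the ratio of 2.6 in q1 was -0.006 in q2. Of the partner chains, C1qa went from 3.46 to 1.01 and C1qb from 1.98 to -0.52. All 3 rose in Ly6Chigh and fell in Ly6Clow (q = 0.000859 and 0.000418 each in the authors' deposited table). The tissue macrophage list, which includes the C1q genes, had 4 of 8 at least 2-fold higher in Ly6Clow in q2 and 6 in q1 (4.84% and 4.99% of all rows compared). Its sums were 131 and 108 FPKM in Ly6Chigh and 263 and 119 in Ly6Clow. Emr1 of that list was at 106 FPKM in Ly6Chigh in q1 and 50.5 in q2, and at 135 and 39.4 in Ly6Clow. Emr1 and the C1q genes make up most of each sum. Spic, a transcription factor of red pulp macrophages, was raised from 1.47 to 2.56, at 2.2 FPKM in Ly6Chigh in q1 and 0.889 in q2, and at 7.86 and 10.1 in Ly6Clow. The part of macrophages in the C1q values was not tested. C3, the central complement component, was kept on the Ly6Chigh side at -3.0, and C3ar1, the receptor of its fragment C3a, was gained there at -2.04, at 1.27 FPKM in Ly6Chigh in q1 and 6.23 in q2, and at 0.867 and 0.761 in Ly6Clow. Cfb, factor B of the alternative pathway, was lost, from -2.7 to -0.52. The loci of C3 and Cfb hold more than 1 symbol.

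Saa3, an acute phase protein made by macrophages, was the lost difference with the largest change (chromosome 7, 46711998 to 46715676). It was at 71.8 FPKM in Ly6Chigh in q1 and 68.3 in q2, and at 7.71 and 105 in Ly6Clow, and the ratio went from -3.06 to 0.62 with a rise in Ly6Clow (q = 0.000418, against q = 0.919 in Ly6Chigh, in the authors' deposited table). Granule, S100 and acute phase genes as a list stayed on the Ly6Chigh side, with 12 of 14 at least 2-fold higher there in q2 and 13 in q1 (3.93% and 5.3% of all rows compared). S100a8, a calcium-binding alarmin, widened from -3.41 to -5.32, at 62.9 FPKM in Ly6Chigh in q1 and 422 in q2, and at 5.03 and 9.59 in Ly6Clow. Its partner S100a9 widened from -2.03 to -2.76, whereas S100a4 and S100a6 narrowed to -1.4 and -1.61. Neutrophils also make S100a8. Of 9 neutrophil marker rows, 5 (Ngp, Camp, Cxcr2, Mmp9 and Stfa2l1) stayed under 1 FPKM in all 4 values. Csf3r, the receptor of the growth factor G-CSF, was at 185 FPKM in Ly6Chigh in q1 and 85.1 in q2, and at 137 and 63.7 in Ly6Clow. Retnlg, a resistin-like secreted protein of neutrophils, rose from 4.95 to 16.2 FPKM in Ly6Clow (q = 0.000418 in the authors' deposited table) and was at 3.32 in Ly6Chigh in q2. The granule gene Lcn2, named after its values were seen, was at 22.6 FPKM in Ly6Chigh in q1 and 99 in q2, and at 0.0663 and 0.236 in Ly6Clow, and it rose in Ly6Chigh (q = 0.000859 in the authors' deposited table). The summed neutrophil list, which holds S100a8 and S100a9, was at 279.9 and 602 FPKM in Ly6Chigh and 154 and 103 in Ly6Clow, and the part of neutrophils in these values was not tested.

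Hsd11b1, which regenerates active glucocorticoid, was a lost difference at 5.65 FPKM in Ly6Chigh in q1 and 15 in q2, and at 47.8 and 21.4 in Ly6Clow, with ratios of 2.88 and 0.48. Ldhb, a lactate dehydrogenase subunit, was also lost, at 35.5 FPKM in Ly6Chigh in q1 and 7.65 in q2, and at 3.33 and 3.49 in Ly6Clow, and only the fall in Ly6Chigh passed the authors' test (q = 0.000859, against q = 0.869 in Ly6Clow, in the authors' deposited table). G0s2, an inhibitor of fat breakdown, narrowed from 4.55 to 2.55 and was kept.

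Of 27 transcription factor genes compared, 5 were at least 2-fold higher in Ly6Clow and 3 in Ly6Chigh in q2 (4.84% and 3.93% of all rows compared), against 9 and 4 in q1 (4.99% and 5.3%). Pparg was the only one past 4-fold in q2. Bhlhe40, a repressor of the clock family, was lost, at 13.3 FPKM in Ly6Chigh in q1 and 78.6 in q2, and at 115 and 145 in Ly6Clow and with ratios of 3.02 and 0.87; its locus holds more than 1 symbol. Hes1, a Notch target, was reduced from 2.9 to 1.75 as it fell in Ly6Clow (q = 0.000418 in the authors' deposited table). Maf was reduced on the Ly6Chigh side, from -2.25 to -1.84. Among factors named after their values were seen, Cebpb, linked to Ly6Clow survival, went from 1.3 to -0.25, Irf4 from -0.79 to 0.65 and Batf3 from -1.36 to 0.21.

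Of 23 survival and apoptosis genes compared, 4 were at least 4-fold higher in Ly6Clow in q2 (1.37% of all rows compared) and 4 in q1 (1.4%). In both conditions these were Bcl2 and the 3 Bcl2a1 copies described below. The median ratio of the list was 0.31 in q2 and 0.005 in q1. Bcl2a1b, an antiapoptotic BCL2 relative, was at 7.68 FPKM in Ly6Chigh in q1 and 54.8 in q2, and at 265 and 414 in Ly6Clow, and its ratio went from 4.94 to 2.9. The near-identical copies Bcl2a1d and Bcl2a1a went from 4.31 to 2.29 and from 3.86 to 2.47, and reads of the 3 copies may be split among them, so they are 1 observation rather than 3. Bcl2 itself was kept at 2.24. In the cell cycle list, Ccnd1 and Ccnd2, the cyclins of cell cycle entry, were kept on the Ly6Clow side at 2.6 and 3.65, while Ccnb2, a mitotic cyclin, was on the Ly6Chigh side in q2 at -1.56. The loci of both cyclin D genes hold more than 1 symbol. At 2-fold, 3 of 28 cell cycle genes were higher in Ly6Clow in q2 and 9 of 25 in q1 (4.84% and 4.99% of all rows compared).

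In the lipid list, Pltp, a phospholipid transfer protein, was kept at 2.69 (a locus with more than 1 symbol), and Npc2 and Lpl, for cholesterol export from lysosomes and for triglyceride breakdown, were reduced on the Ly6Chigh side from -2.23 to -1.16 and from -2.12 to -1.03. At 4-fold, 4 of 29 lipid genes were higher in Ly6Clow in q2 and 4 of 30 in q1 (1.37% and 1.4% of all rows compared). In Ly6Chigh the counts were 0 in q2 and 2 in q1 (0.699% and 1.19%). Fcgrt, the neonatal Fc receptor that recycles IgG, was raised from 1.24 to 2.74 by a fall in Ly6Chigh and a rise in Ly6Clow (q = 0.000859 and 0.000788 in the authors' deposited table). Fcgr1, the high-affinity IgG receptor, narrowed on the Ly6Chigh side to -0.96. Trem1 and Trem3, which amplify inflammation, were reduced on the Ly6Clow side to 1.37 and 1.35. Il1b, the gene of interleukin 1 beta, was raised to 2.54 as it fell further in Ly6Chigh, from 25.7 to 6.25 FPKM, than in Ly6Clow, from 75.3 to 41.1; its locus holds more than 1 symbol.

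No pattern receptor or NF-kB gene passed 4-fold in q2. Of all rows compared, 1.37% passed it on the Ly6Clow side and 0.699% on the Ly6Chigh side. In lists this short, counts of 0 were near the share over all genes. Of 16 pattern receptor genes 0 were past 4-fold, and Nod2, the receptor of MDP, named for that role after its values were seen, had ratios of 0.0095 in q1 and 0.34 in q2, with 9.17 and 11.9 FPKM in Ly6Chigh and Ly6Clow in q2. Nod1 was at 0.88 in q2. Of 16 NF-kB genes 0 were past 4-fold in q2, and Ikbke, a kinase of the pathway, was reduced from -2.17 to -1.05. Among immediate early genes, which respond to handling as well as to signals, Fos widened on the Ly6Chigh side from -1.91 to -3.09, at 1168 FPKM in Ly6Chigh in q1 and 323 in q2, and at 310.2 and 37.1 in Ly6Clow, and Ier3 from -1.16 to -2.24, while Fosb was reduced to -1.42. Of 21 lysosomal genes compared in q2, 0 were past 4-fold, again near the share over all genes, and their median was -0.52.

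**Figure D5:**
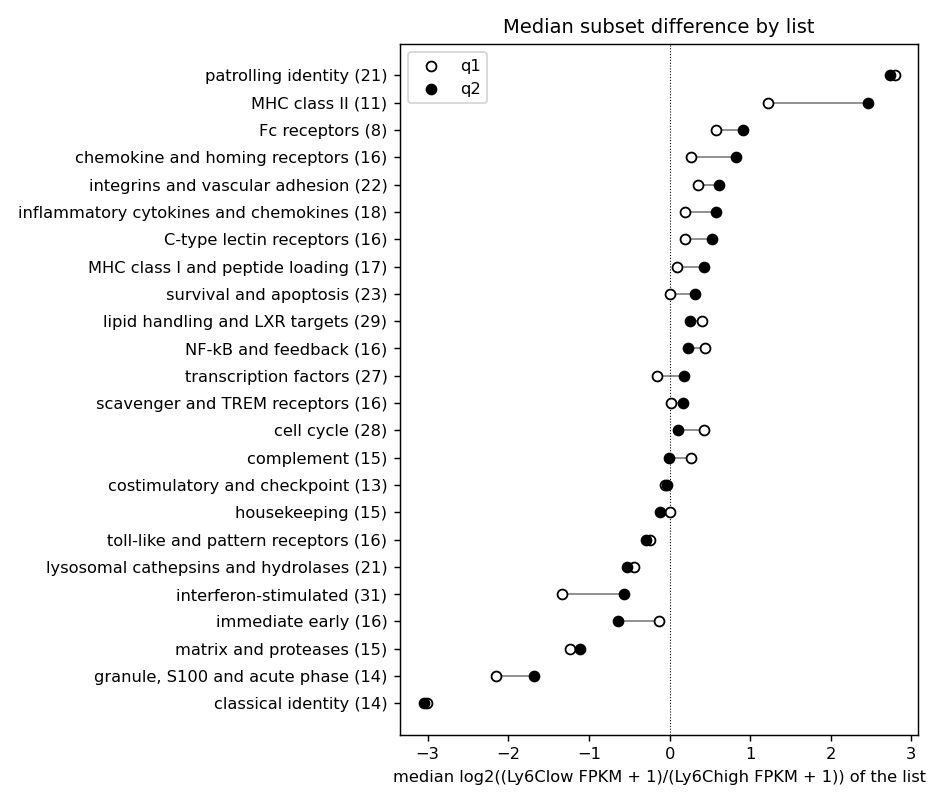
Open and filled circles give the median log2 ratio of each gene list in q1 and q2, with the number of genes compared in q2 in brackets; positive values are higher in Ly6Clow. The lists of MHC class II genes (1.22 to 2.47) and interferon-stimulated genes (-1.33 to -0.56) have long lines, while the classical list (-3.0 to -3.05) and the patrolling list (2.79 to 2.74) have short ones.

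Turned differences numbered 10. Axl, a receptor for dying cells, went from the Ly6Chigh side, -1.8, to the Ly6Clow side, 1.42, at 22.8 FPKM in Ly6Chigh in q1 and 3.34 in q2, and at 5.83 and 10.6 in Ly6Clow, and Tmem176b, a membrane protein gene, from -1.77 to 1.01, at 399.6 FPKM in Ly6Chigh in q1 and 31.1 in q2, and at 116 and 63.8 in Ly6Clow. Both falls in Ly6Chigh and the rise of Axl and fall of Tmem176b in Ly6Clow passed the authors' test (q = 0.000859 and 0.000418 in the authors' deposited table). Of the 10 turned rows, 6 were microRNA or snoRNA rows, a class that makes up 60 of the 10757 rows compared. Mir7050, for example, is listed at 51.9 and 0 FPKM in Ly6Chigh and at 0 and 90.8 in Ly6Clow, so its place among the turned rows rests on ratios formed with the pseudocount against values listed at 0, and no fold is given. Mir7115 and Snora75, which count as gained, are listed at 0 in Ly6Chigh in q2. Atp6v0c, a proton pump subunit, and Scand1 and the joint row of Rps27 and Rps27rt share loci with other symbols, and their q2 values of 184, 84.4 and 6.06 FPKM in Ly6Chigh carried q = 0.436, 0.00510 and 0.4 in the authors' deposited table.

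Markers of NK cells also lay on the Ly6Clow side in q2. Of 7 compared, 6 were at least 2-fold higher in Ly6Clow in q2 and 2 of 6 in q1 (4.84% and 4.99% of all rows compared), with summed levels of 11.8 and 5.27 FPKM in Ly6Chigh and 43.6 and 63.7 in Ly6Clow. Klrd1, the CD94 receptor chain, stood at 4.04 and Gzma, a granzyme, at 3.22, while Ncr1, a defining NK receptor named after its values were seen, was at 0.220 and 1.47 FPKM. Platelet and erythroid markers had 2 of 8 at least 2-fold higher in Ly6Clow in q2 (4.84% of all rows compared), with sums of 524 and 1102 FPKM in Ly6Chigh and Ly6Clow. T cell markers were low, with sums of 3.91 and 6.05 FPKM. The part of these cells in the differences was not tested.

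Of 15 matrix and protease genes, 4 were at least 4-fold higher in Ly6Chigh in q2, as many as in q1. The shares of all rows compared were 0.699% in q2 and 1.19% in q1. In Ly6Clow 1 was in q2 and 0 in q1 (1.37% and 1.4%). Of 18 inflammatory cytokine and chemokine genes, 3 were at least 4-fold higher in Ly6Clow in q2 and 0 in q1 (1.37% and 1.4%). Another 1 in q2 and 2 in q1 were at least 4-fold higher in Ly6Chigh (0.699% and 1.19%). None of the 15 housekeeping genes was past 4-fold in either condition, which was near these shares of all rows compared.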

How the data were processed

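RNA-seq of 12 samples in 4 groups was deposited as 2 Cuffdiff-style tables, 1 per monocyte subset; the subset of a table rests on its name. The authors used Trimmomatic 0.33, TopHat2 2.0.14, Bowtie2 2.2.5, Cufflinks 2.21, Cuffdiff 2.21 and build mm10, per the submitters' processing notes, which name no settings. The deposited values, 1 per condition, were read as FPKM from the Cuffdiff column layout, since the headers say only value. The q-value column, which adjusts the deposited p-value, comes from the authors' own test of q2 against q1 inside a subset, again per the file headers. With no value per sample, depth and replicate spread are unknown, the authors' p-values may measure only technical spread, and no test between subsets was possible.

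The 23996 gene rows of each table were joined on gene and locus, which left out 7 rows of each. Ratios are log2((Ly6Clow + 1)/(Ly6Chigh + 1)) over rows with status OK in both and at least 1 FPKM in either subset. FPKM understates low genes through the pseudocount of 1. Genes were named by rule: the 4 markers, the 10 genes at each end of the q2 ratios, the 8 with the largest change among kept, lost, gained and turned differences (both from 10 FPKM), and in each list up to 4 members with extreme q2 ratios and those past 4-fold in either condition. Members and lists were chosen with earlier results of these data known. List symbols were matched to rows directly or by RefSeq synonym. The classification was checked on simulated data whose differences were set far past the cut-offs. That check does not cover genes near the cut-offs or near 0 FPKM. Python 3.11.15, pandas 2.3.3, numpy 2.4.6 and matplotlib 3.10.9 were used. Alternatives were other pseudocounts, FPKM minimums, folds, centrings, status rules, loci and crossed numbering.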

Additional observations from a re-analysis of the deposited data

How the results depend on the processing

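The counts of genes at least 4-fold higher in Ly6Clow and in Ly6Chigh in q2, and of kept, lost, gained and turned differences, depended most on the pseudocount and the fold, which by construction set how many genes pass. With a pseudocount of 0.1 they were 228, 136, 226, 51, 49 and 17, and with 5 they were 74, 31, 63, 13, 10 and 4. At 2-fold they were 512, 416, 607, 121, 109 and 41, and at 8-fold 53, 18, 39, 8, 10 and 3. If the numbering were crossed between the tables, so that the Ly6Clow values of q1 faced the Ly6Chigh values of q2, the Ly6Chigh count was 148, lost 83, gained 102 and turned 89, and Siglece reversed to -0.81. Turned differences fell to 4 without loci of more than 1 symbol, and to 4 without small RNA rows, an alternative chosen after seeing the data. Centring on the housekeeping list moved the median difference to 0.11, and that list's own medians were 0.0065 in q1 and -0.12 in q2. All other alternatives kept these counts within 1.5 times and the median within 0.1. Of 191 named genes, 11 changed side of the 4-fold line or sign with a pseudocount of 0.1 and 31 with 5. Centring changed 3 by the median and 8 by the housekeeping list. With crossed numbering 188 were compared, of which 41 changed in this way and 146 did not. Besides Siglece, no named gene past 4-fold reversed, but a difference could still vanish or stay with crossed numbering. Ccl17, the widest on the Ly6Clow side, would then set 1.61 FPKM in Ly6Clow against 0.718 in Ly6Chigh. Saa3, called lost, would set 7.71 FPKM in Ly6Clow against 68.3 in Ly6Chigh. No paired analysis was possible because the tables hold no value per sample, and for the same reason no replicate could be left out.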
